A study of Mus musculus with 4 samples.

Results

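The genes described here are the cytosolic ribosomal protein genes of the mouse and their pseudogenes. They were read in RNA-seq libraries of cultured spleen T cells labelled Mthfd2 KO or WT. Members were all rows of the count tables whose symbol began with Rpl, Rplp or Rps and a number, or with Rpsa, leaving out the ribosomal S6 kinases (Rps6k) and Rps19bp1. This gave 328 of 31748 rows. A symbol containing -ps marked 235 of them as pseudogene rows, and the other 93 were called parent rows. The parent rows held 77 textbook ribosomal proteins, 46 of the large and 31 of the small subunit, and 16 further rows that were paralogs or copies without -ps in the name, such as Rpl22l1 and Rps27rt.

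The data were 4 libraries, 2 per group. The 2 KO libraries came from mice labelled TEaMthfd2 KO and the 2 WT libraries from mice labelled TEaWT. TEa mice carry a T cell receptor transgene, and Mthfd2 is an enzyme of mitochondrial folate metabolism. In both groups the T cells were taken from spleens of mice aged 8 weeks by positive magnetic selection for CD4, and were kept for 3 days with mitomycin-treated antigen-presenting cells from spleens of F1 mice (BALB/c x C57BL/6). How the Mthfd2 allele was made, and in which cells it was lost, is not given in the sources used here. The RNA was total RNA depleted of ribosomal RNA. Nothing in the labels says that a group's libraries came from separate animals or cultures, so p-values cover only the spread among the libraries at hand, and this may be technical.

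Total counts lay between 14191401 and 15955863 per library. The first principal component held 69.0% of the variance and separated the groups. The KO libraries lay at 43.8 and 40.9, WT replicate 1 at -65.1 and WT replicate 2 at -19.6. The WT libraries thus lay further from each other than the KO libraries did. Mthfd2 itself was at 222 and 252 CPM (library-scaled counts, relative to the library total after TMM scaling) in the KO libraries and at 280 and 281 CPM in the WT libraries, a log2 fold change of -0.24 with an edgeR adjusted p of 0.324. The row counts the whole gene, and the deleted part is not known, so it does not check the labels; KO and WT are used here as labelled. Cd8a was at 3.16 and 3.20 times the level of Cd4 in the KO libraries and at 4.00 and 3.10 times in the WT libraries, so Cd8a and not Cd4 led in cells labelled CD4+. B cell markers summed to 511 and 455 CPM in the KO libraries and to 1399 and 868 CPM in the WT libraries, and T cell markers to 2734 and 2859 CPM in the KO libraries and to 1928 and 2043 CPM in the WT libraries. In such bulk RNA, fewer cells of a type and less RNA per cell cannot be told apart.

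Each ribosomal protein is built into the small or the large ribosomal subunit, and a cell makes them in matched amounts. Their messenger RNAs are among the most abundant in growing cells, and many begin with a 5′ terminal oligopyrimidine (TOP) tract through which mTORC1 and the RNA-binding protein Larp1 control their translation. Because these messages are short and abundant, mammalian genomes hold many intron-free copies of them that were reverse-transcribed into other places. Most such copies are called processed pseudogenes, and many stay close to the parent in sequence.

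How close they are decides what a row of the table can measure, so a stretch of the coding sequence of 4 parents is shown beside a copy. Sequences and positions are from the GENCODE annotation of mm10 (release M21), 5′ to 3′ on the coding strand. The first pair, Rpl10a (chr17:28328471-28331033, plus strand, 6 exons) and Rpl10a-ps1 (chr1:64993951-64994604, minus strand, a processed pseudogene), is shown over coding bases 4 to 123 because Rpl10a was the only member called by edgeR.
Rpl10a: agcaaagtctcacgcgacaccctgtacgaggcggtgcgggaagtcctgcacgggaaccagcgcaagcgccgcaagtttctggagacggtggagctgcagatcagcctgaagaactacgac
Rpl10a-ps1: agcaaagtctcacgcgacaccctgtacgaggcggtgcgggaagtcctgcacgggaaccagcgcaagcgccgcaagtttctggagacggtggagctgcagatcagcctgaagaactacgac
The second pair, Rpl10 (chrX:74270812-74273135, plus strand, 7 exons) and Rpl10-ps3 (chr9:50344201-50344968, minus strand, protein coding in GENCODE and a pseudogene in RefSeq), is shown over coding bases 1 to 120 because its rows lay on opposite sides of 0.
Rpl10: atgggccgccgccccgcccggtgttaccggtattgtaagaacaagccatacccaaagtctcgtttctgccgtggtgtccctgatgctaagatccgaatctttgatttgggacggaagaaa
Rpl10-ps3: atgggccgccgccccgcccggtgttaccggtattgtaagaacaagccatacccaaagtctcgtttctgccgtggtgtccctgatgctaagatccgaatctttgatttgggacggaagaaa

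Neither pair differs at any base of these stretches. Rpl10a-ps1 matched 99.54% of the Rpl10a coding sequence, with 0 mismatches and an unbroken identical run of 648 bases. Rpl10-ps3 matched the whole Rpl10 coding sequence of 645 bases without a mismatch. A read from inside such a stretch fits both rows equally, also where it crosses an exon junction of the spliced parent. Only reads that reach into an intron of the parent or lie outside the matched sequence can tell the rows apart. How the authors counted reads that fit several places is not given in the sources used here.

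The pseudogene rows with the most counts are nearly as close, as the next pairs show with mismatched bases in capitals. Rpsa (chr9:120127689-120132369, plus strand) encodes the ribosomal protein that doubles as the laminin receptor precursor, and Rpsa-ps10 (chr3:150072658-150073542, minus strand) differs from it at 6 coding bases, of which 2 fall in coding bases 100 to 219.
Rpsa: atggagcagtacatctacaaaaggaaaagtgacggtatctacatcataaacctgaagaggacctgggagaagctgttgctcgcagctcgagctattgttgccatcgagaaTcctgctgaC
Rpsa-ps10: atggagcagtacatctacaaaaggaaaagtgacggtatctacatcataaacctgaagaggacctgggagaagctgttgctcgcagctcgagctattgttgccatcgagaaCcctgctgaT
Rpl3 (chr15:80077791-80091868, minus strand) encodes a core protein of the large subunit, and Rpl3-ps1 (chrX:13202571-13203780, plus strand) differs at 2 coding bases, of which 1 falls in coding bases 1 to 120.
Rpl3: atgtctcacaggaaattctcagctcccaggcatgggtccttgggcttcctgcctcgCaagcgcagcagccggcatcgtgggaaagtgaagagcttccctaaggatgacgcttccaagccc
Rpl3-ps1: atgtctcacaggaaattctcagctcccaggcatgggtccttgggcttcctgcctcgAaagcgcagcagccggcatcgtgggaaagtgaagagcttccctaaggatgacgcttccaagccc

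Ribosomal protein rows took a similar share of each library. Parent rows held 2.80% and 2.55% of the counts in the KO libraries and 2.70% and 2.44% in the WT libraries. The means were 2.67% ± 0.178 for KO and 2.57% ± 0.183 for WT (SD, n = 2 each), a ratio of 1.04, and the groups overlapped. The small subunit list alone averaged 1.04% in KO and 0.998% in WT, a ratio of 1.05, and the ratio for the large subunit list was 1.04.

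Pseudogene rows held nearly as many counts as the parents. Their share was 2.24% and 1.96% in the KO libraries and 2.05% and 1.87% in the WT libraries, with means of 2.10% ± 0.201 for KO and 1.96% ± 0.127 for WT (SD, n = 2 each) and a ratio of 1.07. The groups overlapped again. Of all counts on members, pseudogene rows took 44.4% and 43.4% in the KO libraries and 43.1% and 43.3% in the WT libraries. The KO values both lay above the WT values, by 0.694 percentage points between the means, though the nearest were 43.42% in KO and 43.34% in WT.

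The symbols do not name all copies. A search of the 77 coding sequences against GENCODE's pseudogene transcripts of mm10 and the members outside the textbook list, chosen after the data had been seen, found 615 rows of the tables that matched a parent at 90% identity or more over 80% or more of its coding sequence. Of these, 182 were members and 433 had other symbols, mostly Gm numbers. The rows with other symbols held a mean of 2.36% of the counts in KO and 2.19% in WT. Members and such copies together averaged 7.13% ± 0.641 in KO and 6.72% ± 0.465 in WT (SD, n = 2 each), and the groups overlapped. Pseudogene rows and near-identical copies of any symbol took 66.5% and 65.2% of these counts in the KO libraries and 65.2% and 65.2% in the WT libraries, which overlapped too.

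**Figure D1:**
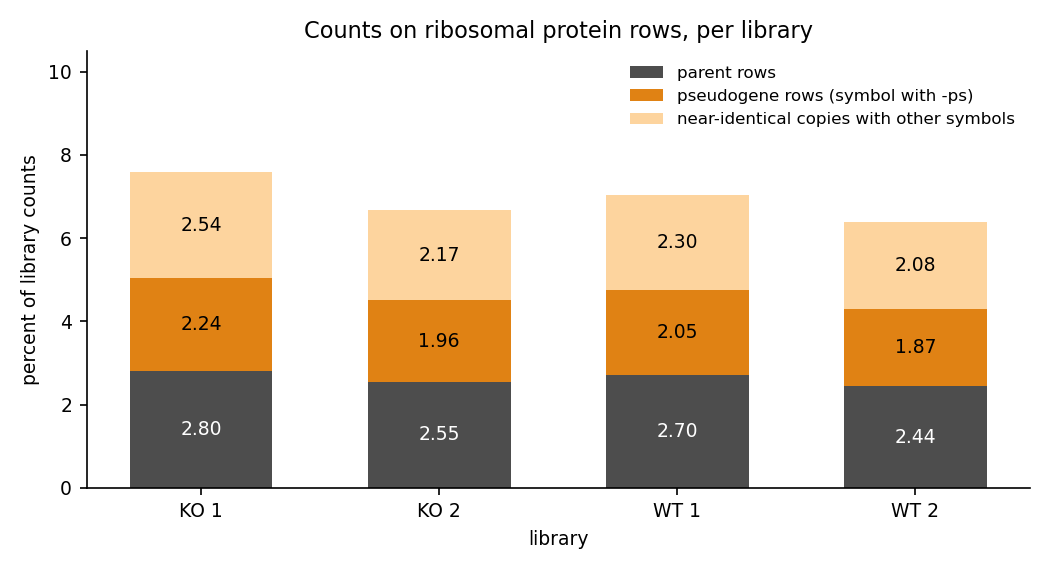
Percent of all counts of a library (y axis) on parent rows, on pseudogene rows and on near-identical copies with other symbols, stacked for the 2 KO and the 2 WT libraries. Parents hold between 2.44% and 2.80% in the 4 libraries, and each kind of copy holds nearly as much; KO and WT overlap in every part.

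Of the 77 textbook parents, 48 had at least 1 pseudogene row, and in 25 the pseudogene rows together held more counts than the parent. All copies of a parent were its near-identical rows of any symbol and the pseudogene rows of its name without such a match. With these, 71 had at least 1 copy, and in 47 the copies held more counts than the parent. Rps6, the mTORC1 pathway's best-known phosphorylated ribosomal protein, had 1976 counts over the 4 libraries, against 81823 on its pseudogene rows. Rpl10a had 9317 counts against 68121 on its pseudogene rows, so the parent row held 12.0% of that family. At the other end, Rpl8 and Rps3 had no near-identical copy with a count, and their rows held 113449 and 118068 counts.

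The levels of the parent rows differed widely. On the scale of CPM per kilobase of transcript, the mean level over the 4 libraries ran from 3.61 for Rpl24 to 2250 for Rpl8, with a median of 67.2. With the pseudogene rows added the median was 527, and with all copies it was 989. The extremes did not draw closer: the highest level was 623 times the lowest for the parents alone and 683 times the lowest with all copies. The lower and upper quartiles were 26.1 and 418 for the parents alone and 195 and 1558 with all copies. The SD of the log2 levels was 2.42 for the parents alone, 2.57 with pseudogene rows and 2.34 with all copies. Rpl24 remained lowest, at 4.18 CPM per kilobase with its copies.

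**Figure D2:**
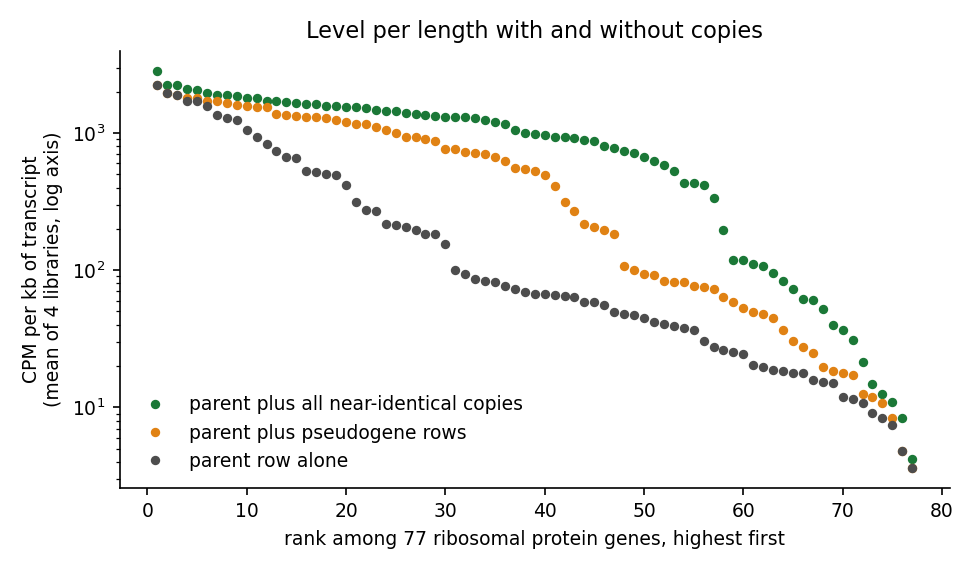
Mean CPM per kilobase of transcript over the 4 libraries (log y axis) for the 77 ribosomal protein genes, ranked from high to low. Levels are for the parent row alone, with its pseudogene rows, and with all copies. The median moves from 67.2 to 527 and 989 as copies are added, while a tail of low genes down to Rpl24 stays.

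In the comparison of KO with WT over 12752 genes, 89 parent rows passed the filter on low counts, and 1 of them fell in KO at an edgeR adjusted p under 0.05 while none rose. Over all genes tested, 1.56% were called lower and 2.39% called higher in KO, so a single call among the parents is near the background. At an unadjusted p under 0.05, 11 parents were lower and 3 higher, against 12.7% and 12.8% of all genes. DESeq2 called 5 parents lower, Rpl10a, Rpl10, Rpl12, Rps12 and Rpl7l1, and none higher, where it called 6.14% of all genes lower. The median log2 fold change of the parents was -0.092, against -0.0026 over all genes, and 51 were negative and 38 positive. Without WT replicate 1 the median was -0.00064, without KO replicate 1 it was -0.063 and without KO replicate 2 it was -0.023. The median without WT replicate 2 is not reported here.

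The subunit lists were described side by side, and the difference between them was not tested. Of the large subunit proteins, edgeR called 1 of 46 lower and DESeq2 called 3 lower. At an unadjusted p under 0.05, 8 of these were lower and 2 higher, 29 were negative and the median was -0.16. Of the small subunit proteins, edgeR called 0 of 31. At an unadjusted p under 0.05, 2 of these were lower and 1 was higher, 16 were negative and the median was -0.024. DESeq2 called 1 small subunit protein, Rps12, lower. Over all genes, edgeR called 1.56% lower and 2.39% higher, and DESeq2 called 6.14% lower. At an unadjusted p under 0.05 in edgeR, 12.7% of all genes were lower and 12.8% higher, and 50.2% were negative.

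Rpl10a, a protein of the large subunit, was the member that fell in edgeR's test. Its row had 1529 and 1670 counts in the KO libraries and 3274 and 2844 counts in the WT libraries. In CPM this was 108 and 120 in KO and 200 and 192 in WT, with means of 114 ± 8.21 for KO and 196 ± 5.47 for WT (SD, n = 2 each). Both KO libraries lay well below both WT libraries. The log2 fold change was -0.78 ± 0.15 (SE), with an edgeR adjusted p of 0.0430. The adjusted p was 0.054 without WT replicate 1, 0.318 without KO replicate 1 and 0.191 without KO replicate 2, and leaving out either KO library ended every call in the table.

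Its identical copy had a positive log2 fold change that did not pass the threshold. Rpl10a-ps1 had 18061 and 15848 counts in the KO libraries and 18756 and 15379 counts in the WT libraries, which was 1277 and 1136 CPM in KO and 1146 and 1040 CPM in WT. The groups overlapped, and the log2 fold change was 0.14 with an adjusted p of 0.595. Summed with its pseudogene rows, the Rpl10a family averaged 1322 ± 91.9 CPM in KO and 1290 ± 80.6 CPM in WT (SD, n = 2 each). The family's log2 fold change was 0.037 ± 0.15 (SE) with an adjusted p of 0.905, in an edgeR fit over all rows in which 3.93% of genes were called. The parent row held 7.79% and 9.52% of the family's CPM in the KO libraries and 14.8% and 15.6% in the WT libraries. The row's share of its family was thus lower in both KO libraries, while the family sums of the groups overlapped.

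Rpl10, a late-joining large subunit protein, showed a similar split in a family with fewer counts. The Rpl10 row had 35.0 and 39.9 CPM in the KO libraries and 74.6 and 56.2 CPM in the WT libraries, a log2 fold change of -0.81 with an adjusted p of 0.0649. Rpl10-ps3 had 82.4 and 93.9 CPM in the KO libraries and 50.0 and 53.6 CPM in the WT libraries, a log2 fold change of 0.77 with an adjusted p of 0.0510. Neither row passed edgeR's threshold, DESeq2 called both and limma-voom called Rpl10-ps3, and in neither row did the groups overlap. Rpl10 with all its pseudogene rows stood at 151 and 158 CPM in the KO libraries and at 148 and 134 CPM in the WT libraries, a log2 fold change of 0.13 with an adjusted p of 0.607. The Rpl10 row held 23.2% and 25.2% of that sum in the KO libraries and 50.4% and 41.9% in the WT libraries.

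**Figure D3:**
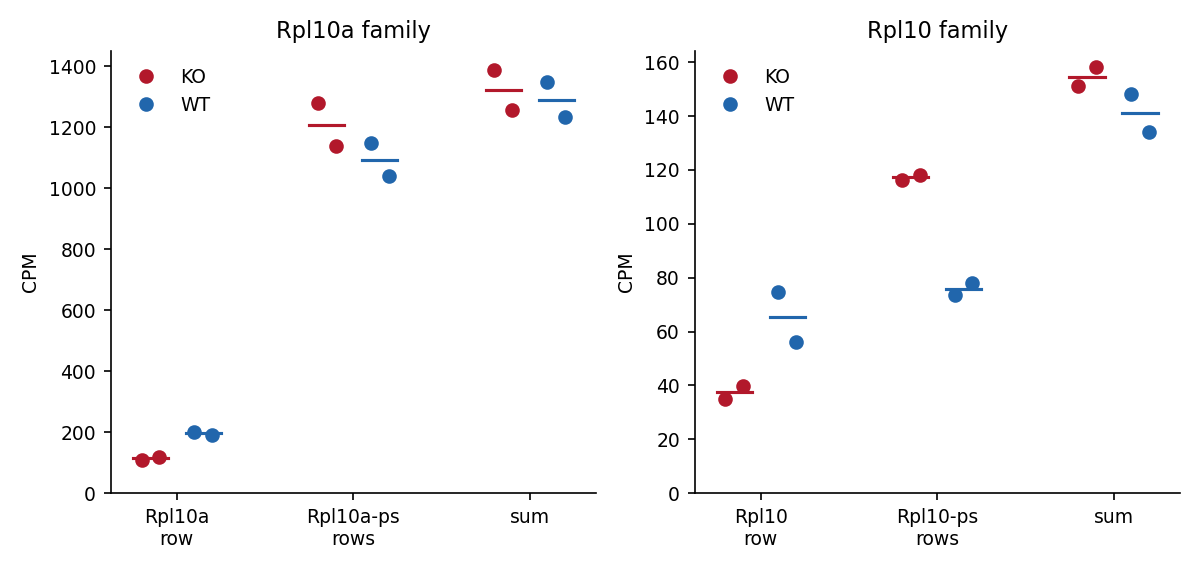
CPM (y axis, from 0) of the parent row, of the pseudogene rows together and of their sum for Rpl10a and for Rpl10; points are libraries, 2 KO and 2 WT per item, and bars are group means. The parent rows lie lower in KO, while the family sums average 1322 against 1290 CPM for Rpl10a and 155 against 141 CPM for Rpl10 (KO against WT).

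Such rows with a small part of their family were common among the parents that lay lower in KO. Parents were sorted by the share of their family's counts, all copies included, that fell on the parent row over the 4 libraries. In the 26 with under 10%, 21 had a negative log2 fold change and the median was -0.31. The same families with copies added had a median of 0.14, in sums that were mostly copy counts. In the 21 with 10% to 50%, 9 were negative and the median was 0.038, and in the 30 with 50% or more, 15 were negative and the median was 0.030. The rows in the lowest class had a median of 1586 counts over the 4 libraries, against 6208 in the highest class. This is a description of rows, which share reads and libraries, and no test was made of it. Leaving out each library in turn left between 20 and 22 of the 26 negative, with medians between -0.36 and -0.26.

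The level of a row and its fold change also went together among the parents. Of the textbook parents under 10 CPM, all 7 were negative, and of those from 10 to 100 CPM 32 of 39 were, with a median of -0.28. Of those at 100 CPM or more, 6 of 31 were negative and the median was 0.14. All genes tested at the same levels were negative in 47.2%, 52.9% and 48.0%. Of the pseudogene rows, 27 of 47 were negative under 10 CPM, 3 of 21 from 10 to 100 CPM, and 3 of 31 at 100 CPM or more. Their median from 10 to 100 CPM was 0.26, on the other side of 0 from the parents, and at 100 CPM or more it was 0.14, as in the parents.

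**Figure D4:**
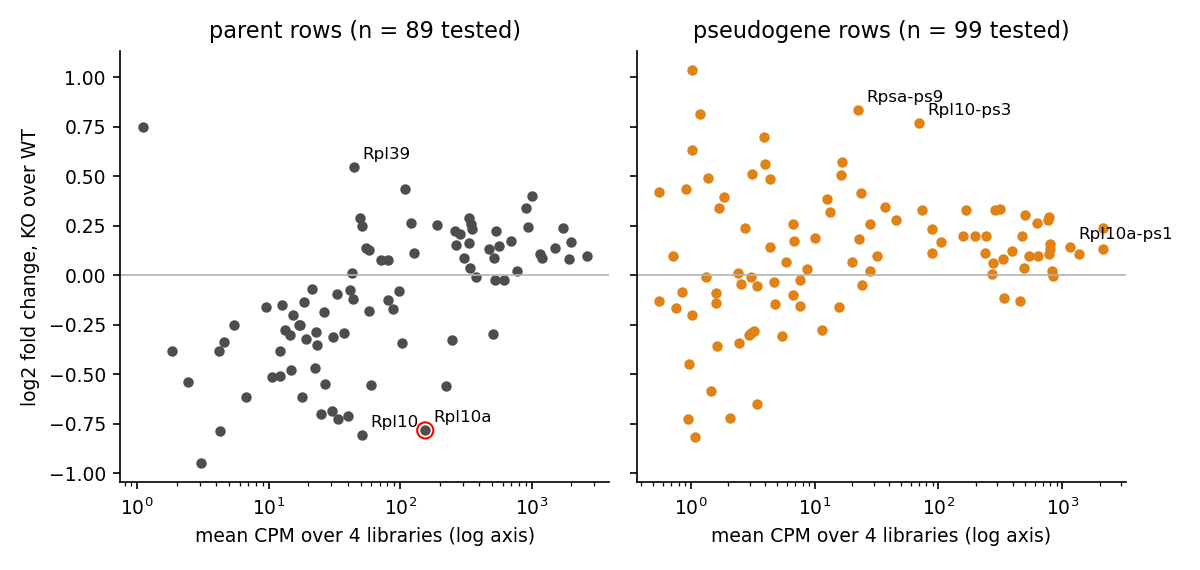
Log2 fold change, KO over WT, (y axis) against the mean CPM over the 4 libraries (log x axis) for the 89 parent rows and the 99 pseudogene rows tested; the ring marks Rpl10a, the only member called by edgeR. Parents under 100 CPM lie mostly below 0 and those above it mostly above 0, while pseudogene rows over 10 CPM lie mostly above 0.

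Among the 77 parents, 15 had a log2 fold change under -0.5, and these are listed by the sign of their family with copies added. That sign depends on the parent's share: with a small share the sum is mostly copy counts, and with a large share mostly the parent row. The split therefore does not show different kinds of parent. In 10 of them the family was positive, between 0.026 and 0.29, and the parent row held between 1.23% and 33.7% of the counts. Besides Rpl10a and Rpl10, these were Rpl9, Rpl12 and Rpl28 of the large subunit and Rps10, Rps12, Rps13, Rps27 and Rps27a of the small subunit, named after their values were seen. Rps12 had 27.9 and 33.4 CPM in the KO libraries and 55.5 and 44.9 CPM in the WT libraries, while its 20 pseudogene rows together had 602 and 522 CPM in KO and 557 and 496 CPM in WT. Its log2 fold change was -0.71 alone and 0.041 with the copies, and neither passed edgeR's threshold. Rps27 had 406 counts in all against 19771 on Rps27rt, its intron-free copy, and stood at -0.62 alone and 0.27 with it.

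The other 5, Rpl24, Rpl30, Rpl35a, Rpl38 and Rps29, held 86.5% or more of their family and stayed between -0.95 and -0.46. They were low rows, with 147 to 2019 counts over the 4 libraries. Rpl38, known from mice for its part in patterning of the skeleton, had 25 and 33 counts in the KO libraries and 72 and 53 counts in the WT libraries, a log2 fold change of -0.95 ± 0.44 (SE) with an adjusted p of 0.229. Rpl30 had 400 and 310 counts in KO and 779 and 530 counts in WT, at -0.72 with an adjusted p of 0.104. Rps29 had 37 and 50 counts in KO and 90 and 77 counts in WT, at -0.79 with an adjusted p of 0.245. In all 3 both KO libraries were below both WT libraries, which over all genes was so in 30.1%.

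With all copies added to their parents, 0 of the 77 families were called by edgeR. At an unadjusted p under 0.05, 2 were higher and 1 was lower, and 58 were positive and 19 negative. In that fit 3.92% of all genes were called. The SD of the log2 fold changes over the families was 0.26, against 0.35 for the parents alone, and the median was 0.11, against -0.12.

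**Figure D5:**
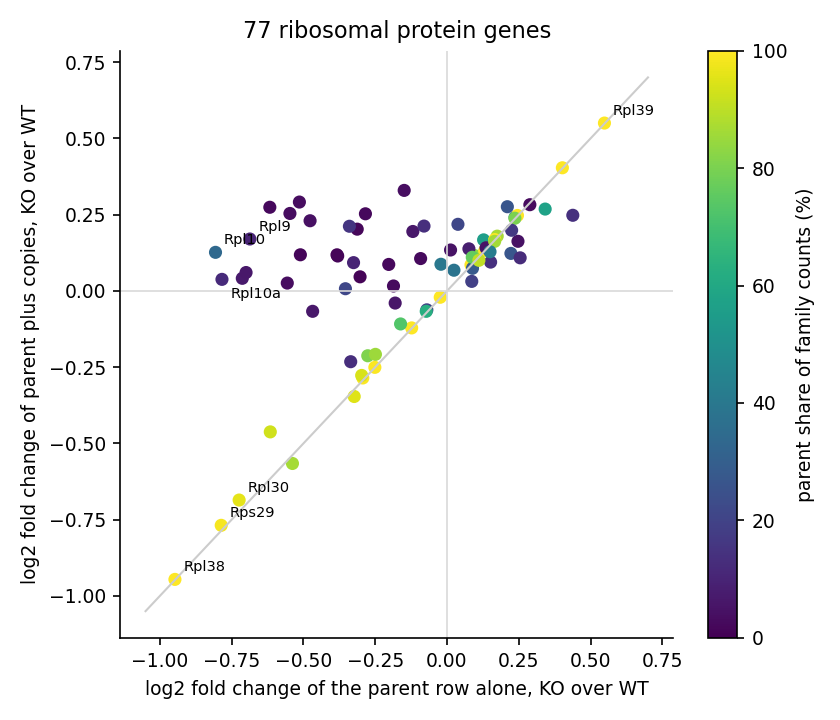
Log2 fold change, KO over WT, of the 77 parents alone (x axis) and of the same genes with all copies added (y axis). Points are coloured by the parent's share of the family counts, and the grey diagonal marks equal values. Of the 15 parents under -0.5, 10 lie above 0 with copies and 5, with a share of 86.5% or more, lie near the diagonal.

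The parents with the highest log2 fold changes did not pass the threshold. Rpl39, a small protein near the exit of the nascent chain tunnel, had 56.5 and 49.8 CPM in the KO libraries and 37.0 and 35.6 CPM in the WT libraries, at 0.55 ± 0.16 (SE) with an adjusted p of 0.0965. No copy of it had a count. Its testis-type paralog Rpl39l had between 6 and 29 counts per library, and its groups overlapped. Rpl41 stood at 0.40 and Rps2 at 0.34, with adjusted p-values of 0.143 and 0.208. In Rpl39, Rpl41 and Rps2 both KO libraries were above both WT libraries, which over all genes was so in 29.8%.

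The most abundant parents differed little. Rpl4 had 2771 and 2674 CPM in the KO libraries and 2643 and 2452 CPM in the WT libraries, at a log2 fold change of 0.096. Rplp0, the scaffold protein of the ribosomal stalk and a common reference gene, had 1886 and 1887 CPM in the KO libraries and 1605 and 1596 CPM in the WT libraries, at 0.24 with an adjusted p of 0.346. Rps3, Rpl8 and Rps9 stood between 0.084 and 0.17, with adjusted p-values of 0.602 or more. The values of Rplp0 within a group were close together, and its KO libraries both lay above the WT libraries.

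Of the 16 further parent rows 12 passed the filter, and none was called by edgeR or limma-voom. Rpl7l1, a paralog of Rpl7, came closest, with 162 and 197 CPM in the KO libraries and 265 and 262 CPM in the WT libraries, at -0.56 ± 0.15 (SE) with an adjusted p of 0.0874. DESeq2 called it lower. Rpl22l1, a paralog of Rpl22, had 22.6 and 12.8 CPM in KO and 20.1 and 18.8 CPM in WT, and the groups overlapped. Rps27l, a paralog of Rps27 known as a p53 target, had 143 and 122 CPM in KO and 102 and 119 CPM in WT, at 0.26 with an adjusted p of 0.36. The copies without -ps in the name were often the larger row: Rps3a2 had 1296 and 1093 CPM in KO and 1163 and 1054 CPM in WT, and Rpl37rt had 369 and 379 CPM in KO and 312 and 313 CPM in WT. Rpl32l, Rpl6l, Rps3a3, Rps4l and Rpl36al overlapped between the groups. RefSeq lists Rps4l, Rpl6l, Rps3a3 and Rps3a2 as pseudogenes.

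Of the 235 pseudogene rows, 71 had no count in any library and 99 passed the filter. EdgeR called 0 of the 99. At an unadjusted p under 0.05, 3 were higher and 0 lower, against 12.8% and 12.7% of all genes. DESeq2 called 2 higher, where it called 6.74% of all genes higher, and limma-voom called 1 higher, against 2.95% of all genes. Of the 99 rows, 66 were positive and 33 negative. Their median log2 fold change was 0.11, against 0.036 without KO replicate 1 and 0.22 without KO replicate 2. The medians without a WT library are not reported here. Both KO libraries were above both WT libraries in 35 of these rows and below them in 9, against 29.8% and 30.1% of all genes. These counts describe only the rows that passed the filter.

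Rpl10-ps3 and Rpsa-ps9 were the 2 rows called by DESeq2. Rpsa-ps9 had 26.4 and 31.4 CPM in the KO libraries and 16.7 and 15.8 CPM in the WT libraries, at 0.83 ± 0.20 (SE) with an edgeR adjusted p of 0.0658. Rps18-ps1 and Rpl10a-ps4 had higher or similar log2 fold changes, 1.04 and 0.81, on 10 to 25 counts per library. Rpl7a-ps7, Rps19-ps4 and Rpl19-ps7 were among the lowest, between -0.82 and -0.65, on 8 to 72 counts per library. None of these 5 passed the threshold in edgeR, DESeq2 or limma-voom.

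The pseudogene rows with the most counts were as high as the highest parents. Rpl3-ps1 had 2335 and 2162 CPM in the KO libraries and 2106 and 1991 CPM in the WT libraries, at a log2 fold change of 0.13. Rpsa-ps10 had 2462 and 2156 CPM in the KO libraries and 2023 and 1892 CPM in the WT libraries, at 0.24. Rps6-ps4, Rps7-ps3 and Rpl34-ps1 had group means between 819 and 1428 CPM, with log2 fold changes of 0.11, -0.0040 and 0.021. All 5 had adjusted p-values of 0.387 or more. RefSeq lists Rpl34-ps1 as protein coding.

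Genes around the ribosomal proteins were read from lists of textbook genes. Fau, which encodes a ribosomal protein fused to a ubiquitin-like protein, stood at -0.22, and Rack1, a scaffold on the small subunit, at 0.10, and edgeR, DESeq2 and limma-voom called neither. Of 21 other TOP messages, such as those of translation factors, edgeR called 0. At an unadjusted p under 0.05, 2 were higher and 0 lower, against 12.8% and 12.7% of all genes. The extremes were Eif3m at -0.23 and Eef2 at 0.42. Eef2, the elongation factor that moves the ribosome along the message, had 7248 and 7541 CPM in the KO libraries and 5181 and 5847 CPM in the WT libraries. Its adjusted p was 0.192 in edgeR. DESeq2 called it higher, as it did 6.74% of all genes.

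Ribosomal protein chaperones and assembly factors mostly had negative fold changes. Of 14 tested, edgeR called 2 lower, against 1.56% of all genes, and 0 higher. DESeq2 called 8 lower and limma-voom 4, against 6.14% and 1.7% of all genes. Of the 14, 9 were lower at an unadjusted p under 0.05, against 12.7% of all genes, 13 were negative and the median log2 fold change was -0.65, against -0.0026 over all genes. Rrs1, known from yeast to help bring the 5S particle into the large subunit, had 70.2 and 95.1 CPM in the KO libraries and 187 and 169 CPM in the WT libraries, at -1.10 ± 0.19 (SE) with an adjusted p of 0.0400. Tsr1, an assembly factor of the small subunit, had 65.4 and 80.5 CPM in the KO libraries and 150 and 124 CPM in the WT libraries, at -0.91 with an adjusted p of 0.0489. Without WT replicate 1 the adjusted p of Tsr1 was 0.0677, with upper quartile factors it was 0.0527, and without either KO library neither gene was called, with adjusted p-values between 0.148 and 0.352. Grwd1, a histone-binding protein whose yeast counterpart escorts Rpl3, stood at -1.06 with an adjusted p of 0.0565, and the importin Ipo9 was the only positive gene of the list, at 0.042.

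Of 13 regulators of ribosomal protein synthesis, edgeR called 1 lower, against 1.56% of all genes, and 8 were negative, against 50.2% of all genes. DESeq2 called 3 lower, Myc, Larp1 and Larp4, and limma-voom called Myc, against 6.14% and 1.7% of all genes called lower. Myc, the transcription factor that drives ribosome production, had 164 and 215 CPM in the KO libraries and 635 and 427 CPM in the WT libraries, at -1.49 ± 0.24 (SE) with an adjusted p of 0.0397, which was 0.297 without KO replicate 1 and 0.155 without KO replicate 2. Larp4 was next, at -0.71 with an adjusted p of 0.0650, and Eif4ebp2, a brake on cap-dependent translation, was the highest at 0.32. Larp1 had 481 and 621 CPM in the KO libraries and 893 and 869 CPM in the WT libraries, at -0.68 with an adjusted p of 0.0711. All 10 B cell markers were lower in both KO libraries than in both WT libraries, and edgeR called 4. Rpl10a, Myc and Larp1 were also lower in both KO libraries. The B cell markers summed to 511 and 455 CPM in KO and to 1399 and 868 CPM in WT. Rpl10a had 108 and 120 CPM in KO and 200 and 192 CPM in WT. With 2 libraries per group, the order of the replicates cannot show whether they vary together. All 9 MHC class II genes were lower in both KO libraries too, and edgeR called 6. Their sums were 1278 and 1102 CPM in the KO libraries and 4023 and 2381 CPM in the WT libraries. Myeloid markers summed to 10.3 and 9.46 CPM in KO and to 31.7 and 12.3 CPM in WT, and red cell genes to 6.86 and 3.08 CPM in KO and to 124 and 32.0 CPM in WT. Of 9 T cell markers, 3 were called higher. Over all genes, both KO libraries were below both WT libraries in 30.1%, and 1.56% were called lower and 2.39% higher. The part of other cells in these results was not tested.

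A TOP tract was looked for at the start sites in RefSeq's promoters of GRCm38.p6, as a C at the annotated start followed by at least 4 bases of C or T, on the coding strand. It was found in 13 of the 57 parents with a promoter in the table, or 22.8%, against 3.01% of 27025 genes. Within 5 bases of the annotated start it was found in 47.4% of the parents and 21.2% of all genes. Members with and without such letters are shown over 5 bases before and 20 bases from the start, with the tract in capitals.
Rpl38: tcgttCTTTCCCCgttctcttcggt
Rpl28: tgtctCTCTTTCCgtctccggccgc
Rpl15: gccttCTTCCTTTCCTCTggcggca
Rpl4: tgtgggagcagccgggtagagagga
Rpl39: gcctctagcgacttcttctaatcgc
Rpl38 (chr11:114668575-114668599, plus strand) was the lowest parent and Rpl39 (chrX:37085203-37085227, minus strand) the highest of the textbook list by log2 fold change, and Rpl4 (chr9:64173382-64173406, plus strand) the parent with the most counts. Rpl28 (chr7:4792960-4792984, plus strand) and Rpl15 (chr14:18270967-18270991, minus strand) were added to show further tracts. A tract missing at an annotated start says only that these letters are not there.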

How the data were processed

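Per the submitters' processing notes, reads were counted per gene with featureCounts of Subread 2.0.1 on mm10, and R 4.0.4 and DESeq2 1.30.1 were also named. The authors deposited whole-number counts for 31748 symbols per library, not normalized. The aligner, annotation release, strand setting and the treatment of reads with several places were not given in the sources used here. Here, genes were filtered with filterByExpr (minimum count 10, minimum total 15), scaled by TMM and compared, KO over WT, with edgeR 4.0.16's quasi-likelihood test in R 4.3.3 on all 4 libraries. Benjamini-Hochberg adjusted p-values under 0.05 over 12752 genes were called. The SE of a fold change is its size over the square root of F. DESeq2 1.42.0 and limma 3.58.1 (voom) were alternatives. The script was tested on simulated counts.

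Copies were found with BLAST 2.17.0 against GENCODE M21 transcripts of pseudogenes and of members outside the textbook list and added to the parent with the best match. The 60 pseudogene rows without a near-identical match were added to the parent of their symbol. Sums per library are descriptions without a test. Named members were those called, the 6 parents and 6 pseudogenes with the highest levels, the 5 parents and 4 pseudogenes with the highest and with the lowest fold changes, and every paralog tested; some of these are not reported here. Members, lists and rules were chosen with earlier results of these data known. How shared reads were placed bears on every count of a parent or copy.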

Additional observations from a re-analysis of the deposited data

How the results depend on the processing

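Calls depended strongly on the setting. Over all genes edgeR called 305 higher and 199 lower in KO. Without the filter on low counts these were 737 and 682, with DESeq2 860 and 783, with the replicate number as a block 488 and 401, and with upper quartile factors 122 lower. Leaving out 1 library gave 0 to 1432 higher and 0 to 1127 lower; without either KO library no gene was called. Such fits leave 1 group with a lone library, assumed to vary like the other group.

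Parents called lower numbered 1 in the edgeR test, 3 without the filter, 5 with DESeq2, 0 with pseudogene counts or all copies added, and 0 to 6 on leaving out 1 library. Pseudogenes called higher numbered 0, but 2 without the filter, 1 with at least 10 counts in every library, 2 with DESeq2, 1 with limma-voom, 1 with the block, and 0 to 2 on leaving out 1 library. The median of the parents, -0.092, was 0.087 with pseudogene counts added and 0.11 with all copies. The ratio of summed parent counts lay between 0.991 and 1.10, and that of pseudogenes between 1.00 and 1.15, on leaving out 1 library.

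With copies added, Rpl10a stood at 0.037 ± 0.15 (SE) with pseudogenes and at 0.038 ± 0.15 with all copies. Rpl10 stood at 0.13 ± 0.15 and 0.13 ± 0.14. Both thus changed sign, to values within their SE of 0, in sums where copies held more counts than the parent. Rps7-ps3, at -0.0040, turned to 0.00075 with DESeq2 and with its size factors, and Rpl34-ps1 to -0.027 and Ipo9 to -0.0074 with library size only. Leaving out 1 library also reversed some rows, whose log2 fold changes then ranged from -0.18 to 1.76 for Rpl39l, -0.59 to 0.22 for Rpl22l1, -0.54 to 0.12 for Rps4l, -0.056 to 0.21 for Rpl32l, -0.13 to 0.11 for Rpl6l, -0.70 to 0.048 for Rpl36al, -0.44 to 0.060 for Rps3a3, -0.015 to 0.23 for Rps3a2, -0.27 to 0.23 for Rps7-ps3, -0.19 to 0.21 for Rpl34-ps1, -0.19 to 0.33 for Ipo9 and -0.49 to 0.12 for Fau. Apart from the copies, whose addition changes the row itself, the cause was not tested.

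Deviations of same-numbered libraries correlated at 0.0397 over genes. With only 2 numbers, this cannot decide whether the numbers pair the libraries. For the summed parent rows, replicate 1 was above replicate 2 in both groups, at 2.80% and 2.55% in KO and 2.70% and 2.44% in WT. Within each number the KO library was thus above the WT library, although the groups overlapped. Pairing was not tested for these sums. Depth limits rows such as Rpl38 and Rpl24, with under 100 counts per library.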
